A study of Homo sapiens with 12 samples.

Results

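Expression was examined for 9 genes of epithelial surface glycoproteins in SCC-15 cells, an established line of human oral squamous cell carcinoma. The members are EPCAM, the transmembrane mucins MUC1, MUC4, MUC16 and MUC20, and the carcinoembryonic antigen relatives CEACAM1, CEACAM5, CEACAM6 and CEACAM7. They were taken by symbol from the table of gene counts, with no cut on their values, and make up 9 of its 61044 listed IDs. The set was chosen with earlier results of these data known. A total of 7 members passed the filter on low counts and were tested, while CEACAM5 and CEACAM7 did not pass. In 3 of the 4 groups the cells carried a hairpin directed at FMOD (shRNA1, shRNA2 or shRNA3), and in the fourth a negative-control hairpin (NC). All were harvested after 48 hours. FMOD encodes the collagen-binding matrix protein fibromodulin, and the study asked which genes respond to its depletion. Each group has 3 libraries, 12 in all, and every group is the same cell line, and the labels name no difference between groups other than the hairpin. Nothing in the labels says whether the libraries of a group came from separate cultures, so p-values measure the spread between libraries, which may be technical.

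EPCAM is a homophilic adhesion molecule of simple and proliferating epithelia that is cut by surface proteases and then by gamma-secretase. Transmembrane mucins carry dense O-linked sugar chains on long repeat domains, which lubricate and shield the apical surface of mucosal epithelia, and several of them are shed into body fluids and used as tumour antigens, as with CA125 from MUC16. The CEACAMs are immunoglobulin-fold adhesion molecules. CEACAM1 spans the membrane and can signal through an inhibitory cytoplasmic tail, whereas CEACAM5, CEACAM6 and CEACAM7 are held by a glycosylphosphatidylinositol anchor and are best known from the gut epithelium.

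Library totals ran from 17286934 to 19567192 counts, and levels below are CPM, counts divided by a library size that was scaled by the trimmed mean of M-values (TMM), unless stated. FMOD itself was at the limit of detection, with 2, 2 and 3 counts in the NC libraries and 0 in all 9 shRNA libraries, so the degree of depletion could not be measured at this depth. Libraries 1 and 2 of shRNA3 stood apart from library 3 of the same group. Across genes, which are not independent replicates, they correlated with it at r between 0.914 and 0.918, whereas library 3 correlated most closely with a library of shRNA2, at r = 0.986. Results of the members that passed with shRNA3 are therefore given with and without libraries 1 and 2. So are the counts over related lists, where they differ. Without these libraries shRNA3 has only library 3, so such fits hold no spread within that group. Their p-values and counts of passing genes carry that limit. Scaling raised libraries 1 and 2 of shRNA3 relative to library 3, with TMM factors of 0.771, 0.795 and 1.06. Levels of related genes with shRNA3 are means over all 3 libraries. Library 3 of shRNA1 also differed more from its 2 partners (mean chi-square per gene 54.5 and 40.5) than these did from each other (9.69). A wider gap lay between NC and all shRNA libraries. The shRNA libraries correlated with NC at r between 0.815 and 0.84, and the NC libraries with one another at 0.992. Every comparison against NC carries this gap, and its cause was not tested. Of 11 markers of squamous epithelium, 10 passed the filter on low counts, and their summed level was 1900 to 2090 CPM in NC, 1450 to 1840 with shRNA1, 1530 to 1600 with shRNA2 and 1380 to 2550 with shRNA3. Squamous markers were thus present in every group. Of the 10 tested, 4 rose and 2 fell with all 3 shRNAs (2 rose without NC library 1, and 3 fell without libraries 1 and 2 of shRNA3). The basal keratin KRT5 fell from 1010 to 21.4, 80.1 and 74.8 CPM, whereas KRT14, its usual partner, rose from 7.58 to 55.4, 24.5 and 149 CPM, KRT15 from 18.2 to 47.6, 49.7 and 216 CPM and KRT6A from 92.2 to 284, 428 and 211 CPM. Markers of leukocytes, endothelium and fibroblasts summed to at most 12.6, 23.4 and 86.6 CPM in any library. Of the leukocyte markers, CD2 and MS4A1 had 0 counts throughout and PTPRC had at most 9, and of the 3 that were tested 1 rose and 2 fell with all 3 shRNAs. CSF1R rose from 2.96 to 6.56, 6.96 and 6.54 CPM, a call lost without NC library 1 or 3, without library 1 of shRNA1 or without TMM, and CD14 fell from 4.17 to 0.808, 1.85 and 0.764 CPM. The count that fell was 0 to 2 over the alternatives.

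The 7 tested members mostly moved toward higher expression of mucins and CEACAM6, with MUC20 going the other way. MUC4, MUC16 and CEACAM6 rose and MUC20 fell with each of the 3 shRNAs, by edgeR's quasi-likelihood test with Benjamini-Hochberg adjustment over 17532 genes and a threshold of 0.05. These 4 of 7 compare with 35.7% of all genes tested, of which 16% rose and 19.7% fell with all 3 shRNAs. In bulk RNA, fewer cells of a type and less RNA per cell cannot be told apart. EPCAM and MUC1 rose with shRNA2 and shRNA3 only, and their difference from shRNA1 was itself past the threshold, as described below. CEACAM1 did not pass against NC with any shRNA. With shRNA1, 4 of 7 tested members passed where 57.4% of all genes did, 3 higher (26.8% of all genes) and 1 lower (30.6%). With shRNA2 it was 6 of 7 against 53% of all genes, 5 higher (24.6%) and 1 lower (28.4%). With shRNA3 it was likewise 6 of 7 against 53.9%, again 5 higher (26.4%) and 1 lower (27.6%). For the mean of the 3 shRNAs 6 of 7 passed against 60%, 5 higher (27.9%) and 1 lower (32.2%). The 9 shRNA libraries lay wholly above or wholly below the 3 NC libraries for 4 of 7 tested members, 3 above (19% of all tested genes) and 1 below (25.8%), a pattern seen in either direction in 44.8% of all tested genes. Change was therefore common in the whole transcriptome, and whether the members as a set differ from it was not tested. The 3 comparisons share the same NC libraries, so they are not independent of one another.

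**Figure D1:**
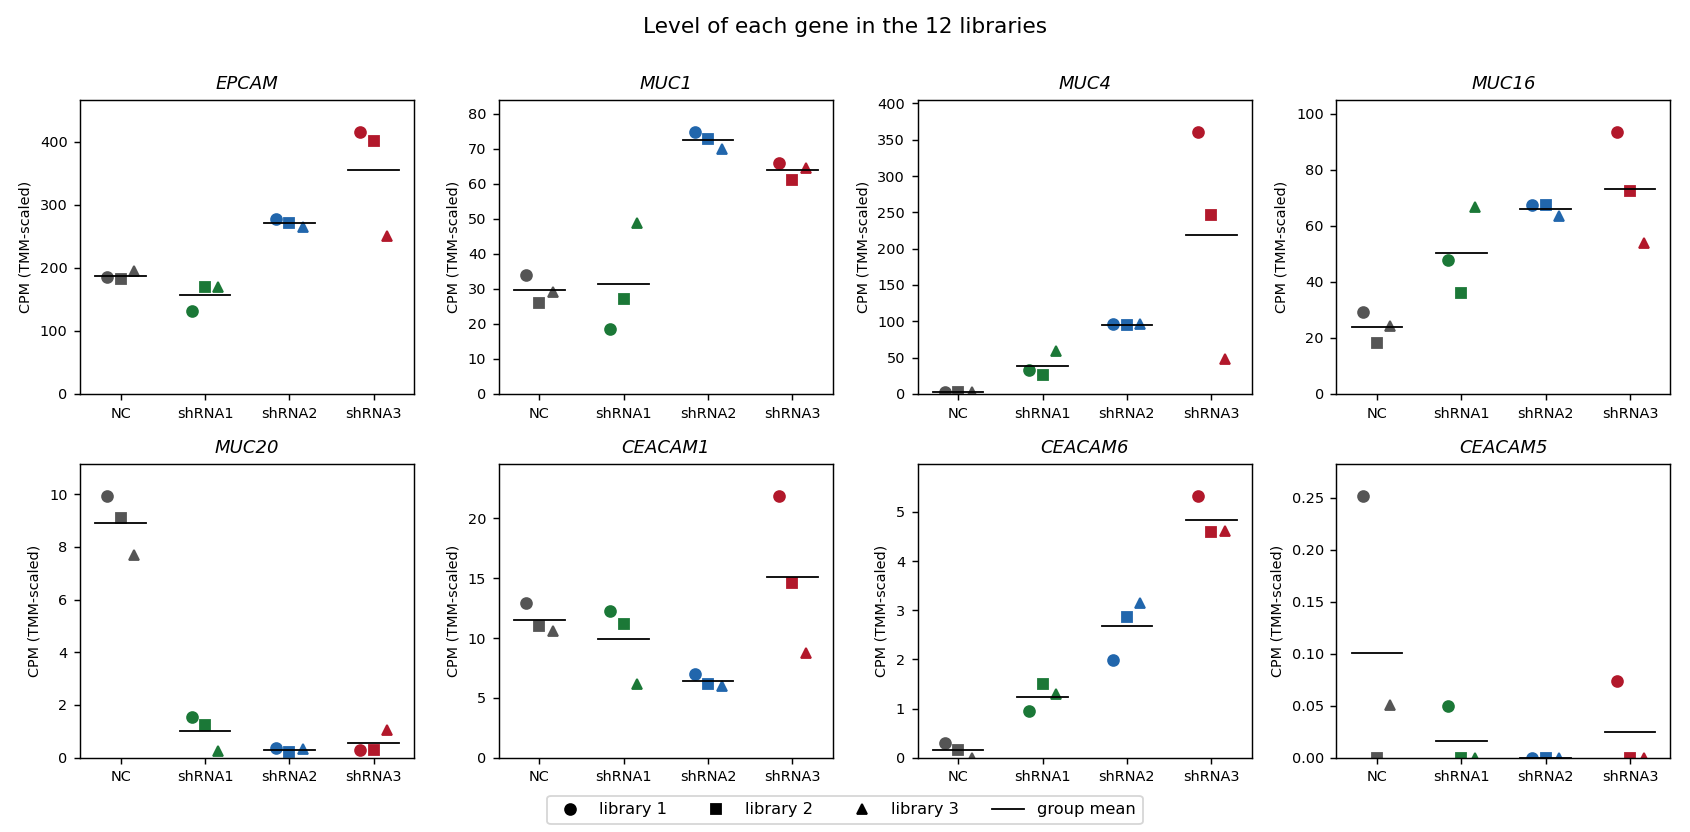
TMM-scaled CPM of 8 members in each library, on linear axes that start at 0. Circles, squares and triangles stand for libraries 1, 2 and 3 of each group and the line is the group mean. MUC4, MUC16 and CEACAM6 lie above all NC libraries in all 9 shRNA libraries, MUC20 lies below, and library 3 of shRNA3 lies below libraries 1 and 2 for EPCAM, MUC4, MUC16 and CEACAM1. CEACAM7, at 0 in every library, is not drawn.

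EPCAM (ENSG00000119888, chr2:47345158-47387601, plus strand, GRCh38) was the member with the highest level per length in every group. It measured 185, 182 and 195 CPM in NC, 131, 169 and 169 CPM with shRNA1, 277, 271 and 265 CPM with shRNA2, and 416, 402 and 250 CPM with shRNA3. All shRNA1 libraries lay below all NC libraries, and all shRNA2 and shRNA3 libraries above them. NC averaged 187 ± 7.04 CPM and shRNA1 156 ± 21.6, while shRNA2 reached 271 ± 6.14 and shRNA3 356 ± 92.2 (each mean ± SD over n = 3). EPCAM rose with shRNA3 by 0.92 ± 0.19 on the log2 scale (SE, adjusted p = 0.00143, edgeR's quasi-likelihood test), and by 0.44 when libraries 1 and 2 of shRNA3 were left out. The rise of 0.53 ± 0.18 with shRNA2 was close to the threshold (adjusted p = 0.03, edgeR), and leaving out any 1 library of NC or shRNA2 took it past 0.05, with an edgeR adjusted p of up to 0.0819. With shRNA1 the change of -0.26 ± 0.18 missed the threshold (adjusted p = 0.244, edgeR). It passed without library 3 of shRNA3 (adjusted p = 0.0247, edgeR), without libraries 1 and 2 of that group (adjusted p = 0.0392, edgeR) and on library totals without TMM (-0.35, adjusted p = 0.0357, edgeR). Averaged over the 3 shRNAs, the difference of 0.40 ± 0.15 passed (adjusted p = 0.0422, edgeR), but not in 11 of 20 alternatives, among them the removal of any NC library, of library 2 or 3 of shRNA1, or of library 1 or 2 of shRNA2.

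MUC1 (ENSG00000185499, chr1:155185824-155192916, minus strand) encodes the most widely expressed transmembrane mucin, whose cytoplasmic tail binds beta-catenin. It read 33.9, 26.1 and 29 CPM in NC, 18.5, 27 and 48.9 CPM with shRNA1, 74.9, 72.9 and 70 CPM with shRNA2, and 65.9, 61.1 and 64.5 CPM with shRNA3. The shRNA1 libraries spread on both sides of NC, while all shRNA2 and shRNA3 libraries exceeded every NC and every shRNA1 library. MUC1 rose 2.45-fold with shRNA2 (log2 1.29 ± 0.28 SE, adjusted p = 0.00217) and 2.15-fold with shRNA3 (log2 1.11 ± 0.28, adjusted p = 0.00546; edgeR's quasi-likelihood test for both). The latter was 1.15 on the log2 scale without libraries 1 and 2 of shRNA3, and 0.77 on library totals without TMM (adjusted p = 0.0446, edgeR). With shRNA1 its difference from NC was 0.08 ± 0.27 on the log2 scale (95% interval -0.55 to 0.72, adjusted p = 0.812, edgeR), and it was -0.38 without library 3 of shRNA1. A rise in the mean of the 3 shRNAs of 0.83 (adjusted p = 0.0096, edgeR) missed the threshold without NC library 2 (0.74, adjusted p = 0.0528, edgeR). The deposited MUC1 values were not whole numbers in 11 of 12 libraries. A gene on the same strand, AL713999.1, overlaps MUC1, averaged between 0.81 and 1.22 CPM per group and passed no test.

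MUC4 showed the largest fitted rise of all members with each shRNA over the 12 libraries. MUC4 (ENSG00000145113, chr3:195746765-195812277, minus strand) encodes a very large membrane mucin that can associate with the receptor ERBB2. Its level was 3.13, 2.21 and 2.28 CPM in the NC libraries. It reached 32.6, 26 and 58.6 CPM with shRNA1, 95.9, 94.8 and 95.6 CPM with shRNA2, and 361, 247 and 48.4 CPM with shRNA3. The lowest shRNA library was thus well above the highest NC library, and the spread within shRNA3 exceeded that of any other group, with library 3 below the shRNA2 libraries and libraries 1 and 2 above them. MUC4 rose 15.3-fold with shRNA1 (log2 3.94 ± 0.62 SE, adjusted p = 0.000254), 37.5-fold with shRNA2 (5.23 ± 0.65, adjusted p = 4.93e-05) and 85.9-fold with shRNA3 (6.42 ± 0.68, adjusted p = 1.67e-05; edgeR's quasi-likelihood test throughout). Without libraries 1 and 2 of shRNA3 the rise with that hairpin was 19.4-fold, and the mean over the 3 shRNAs was 22.5-fold in place of 36.7-fold. In that fit CEACAM6 rose more than MUC4 with shRNA3, by 4.91 against 4.28 on the log2 scale.

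MUC16 (ENSG00000181143, chr19:8848844-8981342, minus strand), the source of the CA125 antigen and a ligand of mesothelin, rose with each hairpin. It measured 29.3, 18.1 and 24.2 CPM in NC and 47.7, 36.1 and 66.6 CPM with shRNA1. With shRNA2 it measured 67.4, 67.5 and 63.6 CPM, and with shRNA3 93.6, 72.3 and 54 CPM. On library totals without TMM the shRNA3 libraries read 72.2, 57.4 and 57.4 CPM. No shRNA library overlapped NC. The rise was 2.10-fold with shRNA1 (log2 1.07 ± 0.26 SE, adjusted p = 0.00437), 2.77-fold with shRNA2 (1.47 ± 0.26, adjusted p = 0.000638) and 3.07-fold with shRNA3 (1.62 ± 0.26, adjusted p = 0.000353; all by edgeR). The last was 1.21 on the log2 scale without libraries 1 and 2 of shRNA3. Differences between hairpins did not pass, with 95% intervals of -0.99 to 0.19 for shRNA1 minus shRNA2, -1.14 to 0.04 for shRNA1 minus shRNA3 and -0.74 to 0.44 for shRNA2 minus shRNA3. The second of these passed without library 3 of shRNA1 (-0.80, adjusted p = 0.048, edgeR) and without library 3 of shRNA3 (-0.72, adjusted p = 0.0158, edgeR).

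MUC20 was the only member that fell with all 3 shRNAs. MUC20 (ENSG00000176945, chr3:195720882-195741123, plus strand) lies next to MUC4 on chromosome 3 and encodes a small transmembrane mucin that binds the receptor MET. It had 197, 185 and 152 counts in NC, 31, 26 and 5 with shRNA1, 6, 4 and 6 with shRNA2, and 4, 4 and 21 with shRNA3. The highest shRNA library lay below the lowest NC library, at 1.54 against 7.7 CPM. The fall was 8.67-fold with shRNA1 (log2 -3.12 ± 0.57 SE, adjusted p = 0.000748), 28.8-fold with shRNA2 (-4.85 ± 0.65, adjusted p = 9.09e-05) and 15.5-fold with shRNA3 (-3.95 ± 0.61, adjusted p = 0.000257; edgeR throughout). Summed counts gave ratios of 8.66, 29.5 and 14.6, with exact 95% intervals of 6.64 to 11.4, 18 to 52 and 10 to 22 that cover counting error only. With shRNA3 the fall was 8.34-fold without libraries 1 and 2 and 29.9-fold without library 3. Of the 50-base stretches in MUC20 transcripts, 54.1% also occur in another gene, chiefly MUC20-OT1 (42.3%), which overlaps it on the same strand, and the pseudogene MUC20P1 (21.5%). Its level is therefore uncertain to the extent that such reads could be assigned elsewhere. MUC20-OT1 also fell, from 34.5 to 21.2, 18.8 and 22.6 CPM (log2 -0.70, -0.87 and -0.61, edgeR adjusted p of at most 0.0407). MUC20P1 had 7, 12 and 5 counts in NC and at most 1 in any shRNA library.

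The 2 neighbouring mucin genes thus went in opposite directions. RefSeq (GRCh38.p14) start sites were matched for 7 of the 9 members, and the 300 bases from 250 before to 50 after the start are printed for MUC4 and MUC1, the mucins with the largest rise and with a rise that differed between hairpins. Capitals mark the GC box GGGCGG (or its reverse complement CCGCCC), the E-box CACCTG (or CAGGTG) bound by ZEB and SNAI repressors, and the TATA sequence TATAAA (or TTTATA). Both strands were searched, neighbouring GC boxes may overlap, and the motifs TGACTCA and AACCGGTT were searched as well and not found in the printed windows. The MUC4 window is chr3:195811880-195812179 and the MUC1 window chr1:155192866-155193165, both on the minus strand.
MUC4: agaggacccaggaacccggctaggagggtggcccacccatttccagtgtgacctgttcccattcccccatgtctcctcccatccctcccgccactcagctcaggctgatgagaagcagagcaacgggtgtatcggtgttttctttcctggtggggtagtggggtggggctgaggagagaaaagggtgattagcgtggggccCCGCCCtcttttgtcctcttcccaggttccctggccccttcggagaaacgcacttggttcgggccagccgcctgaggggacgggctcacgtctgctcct
MUC1: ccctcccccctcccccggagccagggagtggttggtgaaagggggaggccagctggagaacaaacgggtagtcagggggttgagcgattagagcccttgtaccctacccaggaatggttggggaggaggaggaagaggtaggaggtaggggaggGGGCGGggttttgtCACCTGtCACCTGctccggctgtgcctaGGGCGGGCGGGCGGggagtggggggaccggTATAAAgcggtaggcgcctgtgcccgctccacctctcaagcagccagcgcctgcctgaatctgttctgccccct
The MUC1 window holds 2 copies of the E-box side by side, 4 copies of the GC box and 1 TATA sequence. The MUC4 window holds 1 GC box and no such E-box. Among 35116 RefSeq promoter windows of the same length, 20.6% hold at least 1 CACCTG, 3.49% hold at least 2, 45% hold a GC box, 11.5% a TATA sequence, 4.95% TGACTCA and 0.134% AACCGGTT. These matches describe letters in a window and are not binding sites.

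CEACAM1 (ENSG00000079385, chr19:42507304-42561234, minus strand), the family member that signals through its own cytoplasmic tail, did not pass against NC with any hairpin. It measured 12.9, 11 and 10.6 CPM in NC, 12.3, 11.2 and 6.14 CPM with shRNA1, 6.96, 6.14 and 6.03 CPM with shRNA2, and 21.9, 14.6 and 8.73 CPM with shRNA3. The shRNA2 libraries all lay below NC, libraries 1 and 2 of shRNA1 lay within the range of NC and its library 3 below, and libraries 1 and 2 of shRNA3 lay above NC and its library 3 below. The difference with shRNA2 was -0.85 ± 0.34 on the log2 scale (95% interval -1.63 to -0.08, adjusted p = 0.0513, edgeR), and it passed in 11 of 21 alternatives, including the fit without libraries 1 and 2 of shRNA3 (adjusted p = 0.0053, edgeR), without library 1 of shRNA3 (0.035), without its library 3 (0.00494) and without library 3 of shRNA1 (0.0336). With shRNA3 the difference was 0.39 ± 0.33, and it was 0.66 without library 3 (adjusted p = 0.0266, edgeR) but -0.37 without libraries 1 and 2. An antisense gene, LIPE-AS1, overlaps CEACAM1 and averaged 2.2 CPM in NC and 0.845, 0.894 and 1.86 CPM with the shRNAs. Whether counting used strand is not given in the sources used here, so reads from any stretch that both genes share may not be told apart. Overlap of their exons was not examined.

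CEACAM6 rose from almost nothing with all 3 shRNAs, while its neighbour CEACAM5 had at most 5 counts and CEACAM7 none in any library. CEACAM6 (ENSG00000086548, chr19:41750977-41772208, plus strand) encodes a lipid-anchored adhesion molecule of epithelia and neutrophils. It had 6, 3 and 0 counts in NC, 19, 31 and 25 with shRNA1, 34, 51 and 57 with shRNA2, and 72, 63 and 93 with shRNA3. Each shRNA library exceeded every NC library, and the shRNA2 and shRNA3 libraries each exceeded every shRNA1 library. The fitted rise was 7.97-fold with shRNA1 (log2 2.99 ± 0.61 SE, adjusted p = 0.00141), 17.1-fold with shRNA2 (4.09 ± 0.60, adjusted p = 0.000171) and 30.9-fold with shRNA3 (4.95 ± 0.61, adjusted p = 4.66e-05; edgeR throughout). These folds rest on 9 counts in NC. Ratios of summed counts were 8.29, 17.9 and 32, with exact 95% intervals of 4.14 to 18.8, 9.14 to 39.8 and 16.6 to 70.9 for counting error. Without NC library 1, which holds 6 of the 9 counts, the fitted folds were 15.3, 32.9 and 59.3. The rise with shRNA3 was 4.91 on the log2 scale without libraries 1 and 2 of that group. Even at its highest the gene averaged 4.85 ± 0.424 CPM.

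CEACAM5 (ENSG00000105388, chr19:41708585-41729798, plus strand), the carcinoembryonic antigen itself, had 5, 0 and 1 counts in NC, 1, 0 and 0 with shRNA1, 0 in each shRNA2 library and 1, 0 and 0 with shRNA3. Comparing the 9 shRNA with the 3 NC libraries on log2(CPM + 1), a two-sided exact permutation test gave p = 0.0864, where the smallest p that 220 splits allow is 0.00455. CEACAM7 (ENSG00000007306, chr19:41673307-41706976, minus strand) had 0 counts in all 12 libraries. With 3 counts as the limit that a count of 0 allows, its level was under 0.145 to 0.222 CPM per library. For CEACAM5, the ratio of summed counts of shRNA2 to NC (0 against 6) had an exact 95% interval of 0 to 0.961, and the intervals for shRNA1 (0.00361 to 1.37) and shRNA3 (0.00458 to 1.74) included 1. These cover counting error only, and 5 of the 6 NC counts come from library 1.

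The RefSeq promoter windows of CEACAM6, CEACAM5, CEACAM7 and CEACAM1 are shown because these genes have closely related sequence and different levels here. Capitals mark the same motifs as above and also the E-box CACGTG, which reads alike on both strands. The windows are chr19:41755280-41755579 for CEACAM6 and chr19:41708376-41708675 for CEACAM5, both on the plus strand, and chr19:41688221-41688520 for CEACAM7 and chr19:42528432-42528731 for CEACAM1, both on the minus strand.
CEACAM6: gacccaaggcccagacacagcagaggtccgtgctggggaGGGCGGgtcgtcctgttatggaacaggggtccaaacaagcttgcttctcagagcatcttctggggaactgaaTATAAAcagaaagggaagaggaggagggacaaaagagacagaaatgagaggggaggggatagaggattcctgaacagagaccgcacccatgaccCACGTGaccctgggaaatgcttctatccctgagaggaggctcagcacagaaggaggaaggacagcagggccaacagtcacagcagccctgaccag
CEACAM5: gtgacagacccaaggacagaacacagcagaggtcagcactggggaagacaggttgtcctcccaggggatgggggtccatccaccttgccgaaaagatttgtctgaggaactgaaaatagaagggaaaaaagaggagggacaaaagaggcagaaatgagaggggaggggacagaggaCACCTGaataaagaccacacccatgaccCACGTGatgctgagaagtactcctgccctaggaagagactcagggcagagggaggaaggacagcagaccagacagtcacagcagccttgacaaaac
CEACAM7: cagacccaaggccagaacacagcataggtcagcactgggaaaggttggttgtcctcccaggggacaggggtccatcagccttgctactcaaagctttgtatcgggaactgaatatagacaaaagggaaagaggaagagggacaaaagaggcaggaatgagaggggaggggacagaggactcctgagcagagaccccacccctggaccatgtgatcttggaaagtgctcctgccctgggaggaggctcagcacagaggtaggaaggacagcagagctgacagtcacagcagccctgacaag
CEACAM1: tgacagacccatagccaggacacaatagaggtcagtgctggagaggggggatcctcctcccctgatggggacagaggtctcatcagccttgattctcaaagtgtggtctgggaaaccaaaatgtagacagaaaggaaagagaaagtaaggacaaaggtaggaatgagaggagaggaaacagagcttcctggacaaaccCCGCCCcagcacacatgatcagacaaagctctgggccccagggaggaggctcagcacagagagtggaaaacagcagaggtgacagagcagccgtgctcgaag
Aligned end to end, CEACAM5 and CEACAM7 shared 81.4% of positions, CEACAM6 and CEACAM7 81.2%, and CEACAM5 and CEACAM6 75.9%. CEACAM1 shared between 67.1% and 73.4% with the other 3, whereas pairs of mucin windows shared 46.9% to 52.4%. The CEACAM6 and CEACAM5 windows each hold 1 CACGTG, a motif found in 7.26% of all windows, and the CEACAM7 and CEACAM1 windows hold none. CEACAM6, the 1 of these 4 genes that rose, also holds a GC box and a TATA sequence, while CEACAM1 holds a GC box and CEACAM5 a CACCTG. Of 50-base stretches in the transcripts, 6.99% of CEACAM6, 16.3% of CEACAM5, 3.29% of CEACAM1 and 0% of CEACAM7 occur in another gene. Most of those of CEACAM5 lie in AC243967.1, a gene model that spans the locus and had 0 counts in every library.

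**Figure D2:**
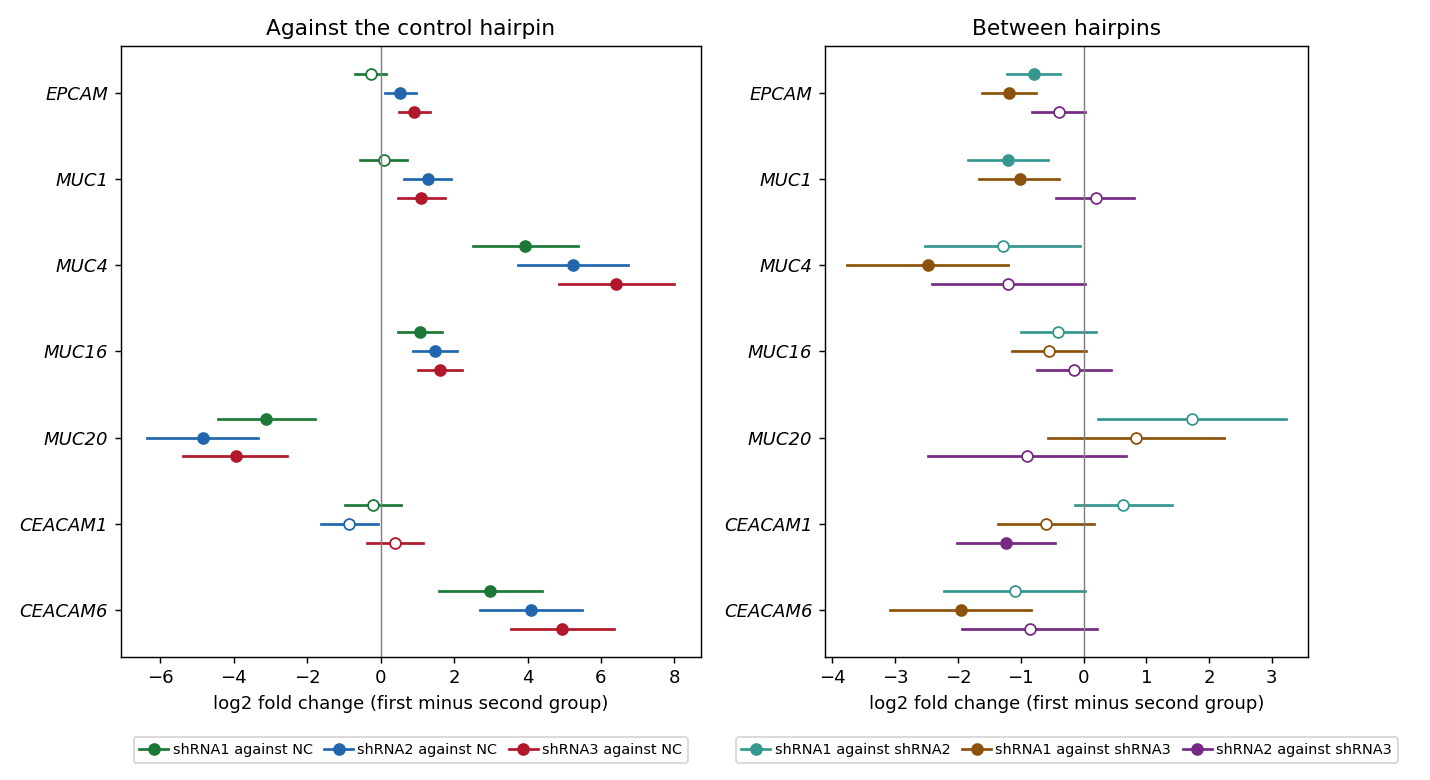
Log2 fold change (points) and 95% interval (lines) of the 7 tested members, against NC on the left and between hairpins on the right. Filled points passed an adjusted p of 0.05 in edgeR's quasi-likelihood test. MUC4, MUC16 and CEACAM6 lie right of 0 and MUC20 left of 0 with all 3 shRNAs, and EPCAM and MUC1 lie near 0 with shRNA1 only.

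Some members differed between hairpins. Between shRNA1 and shRNA2, 2 of 7 tested members passed (12.3% of all genes), EPCAM and MUC1, both lower with shRNA1 (6.53% of all genes, with 5.78% higher). EPCAM was lower with shRNA1 by a log2 difference of -0.79 ± 0.19 (adjusted p = 0.02) and MUC1 by -1.21 ± 0.28 (adjusted p = 0.0184, edgeR for both). Neither passed when any shRNA2 library, or library 1 or 2 of shRNA1, was left out. The edgeR adjusted p was then at most 0.0888 for EPCAM and 0.0893 for MUC1. The count of members was 0, where 3.06% to 3.98% of all genes passed. Without libraries 1 and 2 of shRNA3, the differences were -1.29 for MUC4, 1.73 for MUC20 and 0.63 for CEACAM1. Without library 3 of shRNA3, 6 members passed, where 39.7% of all genes did. MUC4 (-1.29), MUC20 (1.73), CEACAM6 (-1.10) and CEACAM1 were then added, although leaving out that library does not change the libraries compared.

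Between shRNA1 and shRNA3, 4 of 7 tested members passed, where 30% of all genes did, and all 4 were lower with shRNA1 (18.1% of all genes, with 11.9% higher). The log2 difference was -1.19 ± 0.19 for EPCAM (adjusted p = 0.00354), -1.02 ± 0.28 for MUC1 (0.0207), -2.48 ± 0.56 for MUC4 (0.0109) and -1.95 ± 0.49 for CEACAM6 (0.0158, all edgeR). Without libraries 1 and 2 of shRNA3, which leaves 1 library in that group, the differences were -0.69 for EPCAM, -1.05 for MUC1, -0.33 for MUC4 and -1.90 for CEACAM6. The MUC4 call was lost without library 2 of shRNA1 (adjusted p = 0.0522, edgeR). CEACAM6 was lost without its library 1 (0.0647) or 2 (0.0519), and MUC1 without either of these (0.0568 and 0.0813) or library 1 of shRNA3 (0.0562). The count of passing members was 2 without library 1 of shRNA1 (12.2% of all genes) and 1 without its library 2 (9.8%). It was 7 without library 3 of shRNA3, where 63.4% of all genes passed. Between shRNA2 and shRNA3, 1 member passed (8.34% of all genes, 6.43% lower and 1.91% higher with shRNA2), CEACAM1, which was lower with shRNA2 by -1.24 ± 0.34 (adjusted p = 0.0485, edgeR). This call was lost in 15 of 21 alternatives, and the difference was -0.47 without libraries 1 and 2 of shRNA3. Leaving out any library other than library 3 of shRNA1 or of shRNA3 ended it. Without library 3 of shRNA3, 3 members passed (59.2% of all genes), with EPCAM (-0.58) and MUC4 (-1.66) beside CEACAM1.

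Levels of different genes were compared per kb of exon. In NC the order was EPCAM (74.4 ± 2.8 CPM per kb, SD), MUC1 (6.29 ± 0.837), MUC20 (2.10 ± 0.266), CEACAM1 (2.08 ± 0.222), MUC16 (0.545 ± 0.128), MUC4 (0.119 ± 0.0239), CEACAM6 (0.0492 ± 0.0496), CEACAM5 (0.0301 ± 0.0398) and CEACAM7 (0). MUC20 and CEACAM1 did not differ beyond their spread, nor did CEACAM6 and CEACAM5. EPCAM and MUC1 kept the first and second place in every group. MUC4 moved from the sixth place to the third with each shRNA, at 1.83 ± 0.808, 4.47 ± 0.0265 and 10.3 ± 7.42 CPM per kb. MUC20 moved from the third place to the seventh, at 0.240 ± 0.159, 0.0713 ± 0.0159 and 0.128 ± 0.102 CPM per kb. With shRNA1, MUC4 did not differ beyond its spread from CEACAM1 (1.79 ± 0.598) or MUC16 (1.14 ± 0.350), and with shRNA3 the spread of MUC4 reached that of MUC1 (13.5 ± 0.523).

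**Figure D3:**
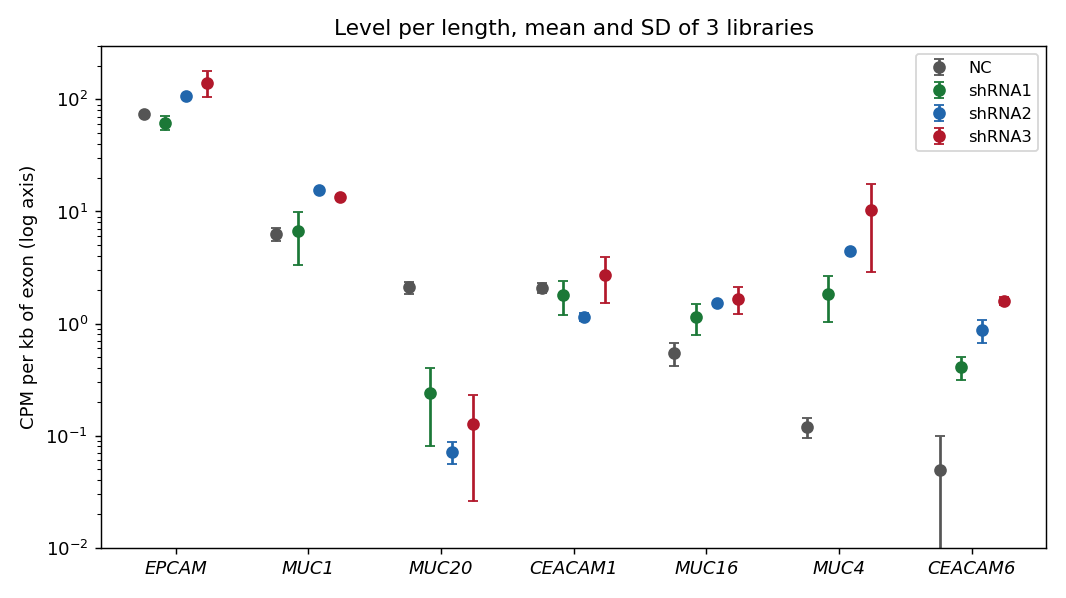
Mean level per kb of exon of the 7 tested members in each group, with the SD of 3 libraries as bars, on a log axis. The lower bar of CEACAM6 in NC runs off the axis because its SD is as large as its mean. MUC4 climbs from 0.119 CPM per kb in NC to 10.3 with shRNA3 while MUC20 drops from 2.10 to below 0.3 with every shRNA.

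Other genes of the same pathways were taken from lists set by family or function, and they are described by counts. The lists were chosen with earlier results of these data known, so they are not independent of the data. Of all 17532 genes tested, 2808 (16%) rose and 3446 (19.7%) fell with all 3 shRNAs. That is the background for each count below from the fit of all 12 libraries. The matching shares of all genes were not computed for the alternative fits, such as those with libraries left out. Counts from those fits are therefore given without a background. All genes tested had a median log2 change of -0.02, -0.05 and -0.03 with shRNA1, shRNA2 and shRNA3. Of 15 other mucins, 5 passed the filter on low counts. Of these, 4 rose with all 3 shRNAs and none fell, and the median log2 change of the 5 was 1.78, 3.74 and 3.64. The count that fell was 1 without NC library 1 or without any 1 shRNA library, and 2 without libraries 1 and 2 of shRNA3. The gel-forming intestinal mucin MUC2 went from 1.94 CPM in NC to 6.67, 15.4 and 24.2 CPM. The gastric and airway mucin MUC5AC went from 0.282 to 1.54, 7.71 and 3.65 CPM, and the transmembrane mucin MUC13 from 0.165 to 4.08, 8.01 and 4.95 CPM. All 3 thus rose from low levels (edgeR adjusted p of at most 0.0221). MUC5B was the fourth, and MUC3A went down with shRNA1 and shRNA2 but read 2.02 CPM with shRNA3 against 1.45 in NC. The summed level of 10 markers of intestinal and glandular epithelium was 5.85 to 6.84 CPM in NC, 3.3 to 5.71 with shRNA1, 22.3 to 26 with shRNA2 and 7.94 to 14 with shRNA3. Of these, 3 were tested, and 1 rose and none fell with all 3 shRNAs. AGR2, a disulphide isomerase of mucus-secreting cells and the largest part of the NC sum, went from 5.81 to 1.4, 6.59 and 5.99 CPM and fell with shRNA1 only (edgeR adjusted p = 9.93e-05). HNF4A, a transcription factor of liver and gut epithelium, rose with all 3 shRNAs, at least 16.8-fold, 94.5-fold and 18.9-fold against a limit of 3 counts per library in NC, a call that the DESeq2 Wald test and a fit of only the groups compared did not make. Its shRNA3 libraries ranged from 0.291 to 7.64 CPM, so the last fold rests mainly on 1 library. The defining intestinal markers CDX1, CDH17 and LGALS4 had at most 2 counts in any library, and the part of these genes in the mucin result was not tested.

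Of 18 other genes of the carcinoembryonic antigen family, 7 passed the filter, 2 fell with all 3 shRNAs (3 without libraries 1 and 2 of shRNA3) and none rose (median -1.25, -2.03 and -1.45). PSG4, a pregnancy-specific glycoprotein, fell from 25.8 to 3.99, 1.01 and 1.35 CPM (edgeR adjusted p of at most 7.69e-05). PSG8 was the other. CEACAM6 was thus the only tested gene of the family, members included, that rose with all 3 shRNAs.

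Among 17 genes related to EPCAM, its partners and its proteases, all tested, 6 fell and 1 rose with all 3 shRNAs (median -0.79, -0.62 and -0.43). Without libraries 1 and 2 of shRNA3, 10 fell and 2 rose. The count that rose was 2 without library 1 of shRNA3 and 0 without library 3 of shRNA1. SPINT1, an inhibitor of the surface protease matriptase, fell from 314 CPM to 32.1, 40.8 and 82.2 CPM, and the LIM-domain cofactor FHL2, which binds the cleaved tail of EPCAM, from 315 to 95.9, 78.3 and 147 CPM (edgeR adjusted p of at most 0.0049). CLDN7, the claudin that complexes with EPCAM, and CD44 fell too. Of the proteases that process EPCAM, ADAM10, ADAM17 and the gamma-secretase genes PSEN2, NCSTN, APH1A and PSENEN did not pass in 1 direction with all 3 shRNAs, whereas BACE1 fell.

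Binding partners of the mucins and of CEACAM1 went both ways, with 3 of 16 higher and 6 lower with all 3 shRNAs (5 higher without library 3 of shRNA3). MSLN, mesothelin, the adhesion partner of MUC16, rose from 4.2 to 169, 277 and 467 CPM (40.2-fold, 65.8-fold and 111-fold, edgeR adjusted p of at most 4.03e-07). LGALS3, the galectin that binds mucin sugars, rose from 58.2 to 83.7, 92.8 and 140 CPM, and CTNNB1, beta-catenin, from 213 to 491, 444 and 445 CPM. The receptor gene EGFR fell from 1310 to 312, 237 and 166 CPM, ERBB3 from 54 to 2.44, 3.7 and 3.79 CPM, and the membrane protease MMP14, which can shed MUC1, from 420 to 0.581, 0.771 and 2.1 CPM. ERBB2, the partner of MUC4, was also among the 6 that fell.

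Enzymes that build O-linked sugar chains went both ways. Of 27 tested genes of 30, 5 rose and 11 fell with all 3 shRNAs (median -0.92, -0.79 and -0.60), or 7 and 13 without libraries 1 and 2 of shRNA3. Among the enzymes that start the chain, GALNT7 rose from 12.3 CPM to 35.3, 38.9 and 27.9 CPM, while GALNT14 went from 10.6 CPM to 0 in all shRNA libraries, at least 70.8-fold, 62.4-fold and 54-fold lower. GALNT18 fell from 30.5 CPM to 0.0681, 0.0188 and 0.114 CPM, and GALNT12 from 13.6 CPM to 0.165, 0.039 and 0.0331 CPM. GCNT3, the branching enzyme of mucin-secreting tissue, rose from 0.749 CPM to 6.79, 9.48 and 16.5 CPM. ST6GALNAC1, the sialyltransferase that makes the short sialyl-Tn antigen, rose at least 10.2-fold, 14.9-fold and 29.7-fold from at most 1 count per NC library. C1GALT1, which extends the chain into core structures, was among those that fell.

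Other surface antigens of epithelia and carcinomas were evenly divided, with 7 of 22 tested genes higher and 7 lower with all 3 shRNAs, or 7 and 10 without libraries 1 and 2 of shRNA3. The lipid-anchored LY6 relatives PSCA (from 1.15 CPM in NC to 32.1, 63 and 70.2 CPM), LY6D (from 1.2 to 18.1, 52.6 and 35.3 CPM) and LY6K (from 22.2 to 171, 165 and 175 CPM) rose. CDH1, E-cadherin, fell from 322 to 38.2, 53.4 and 66 CPM, NECTIN2 from 198 to 36.1, 49.2 and 78.7 CPM, and CD24 from 33.3 to 5.18, 3.84 and 4.78 CPM (edgeR adjusted p of at most 0.0024 for these 6 genes).

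Transcription and splicing factors of epithelia showed 2 of 16 tested genes higher and 6 lower with all 3 shRNAs, or 5 and 8 without libraries 1 and 2 of shRNA3. GRHL2, a grainyhead activator of epithelial genes, fell from 35.5 CPM to 0.0824, 0.133 and 0.281 CPM, and EHF, an epithelial ETS factor, from 606 to 14.8, 20.5 and 14.2 CPM. FOXA2 had 0 counts in all shRNA libraries against 5.25 CPM in NC, at least 35.1-fold, 30.9-fold and 26.7-fold lower. KLF5 rose from 55.9 CPM to 223, 229 and 264 CPM, and GRHL3 from 0.233 to 1.39, 2.66 and 6.9 CPM. Of 7 repressors of epithelial genes, 3 rose and 1 fell. ZEB1 went from 0.485 CPM to 7.77, 4.37 and 2.72 CPM and ZEB2 from 0.619 to 8.04, 3.73 and 3.56 CPM. TWIST2 had no counts in NC and rose at least 25.9-fold, 44.1-fold and 35.5-fold, while SNAI3 fell from 3.14 CPM to 0.793, 0.624 and 0.873 CPM.

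**Figure D4:**
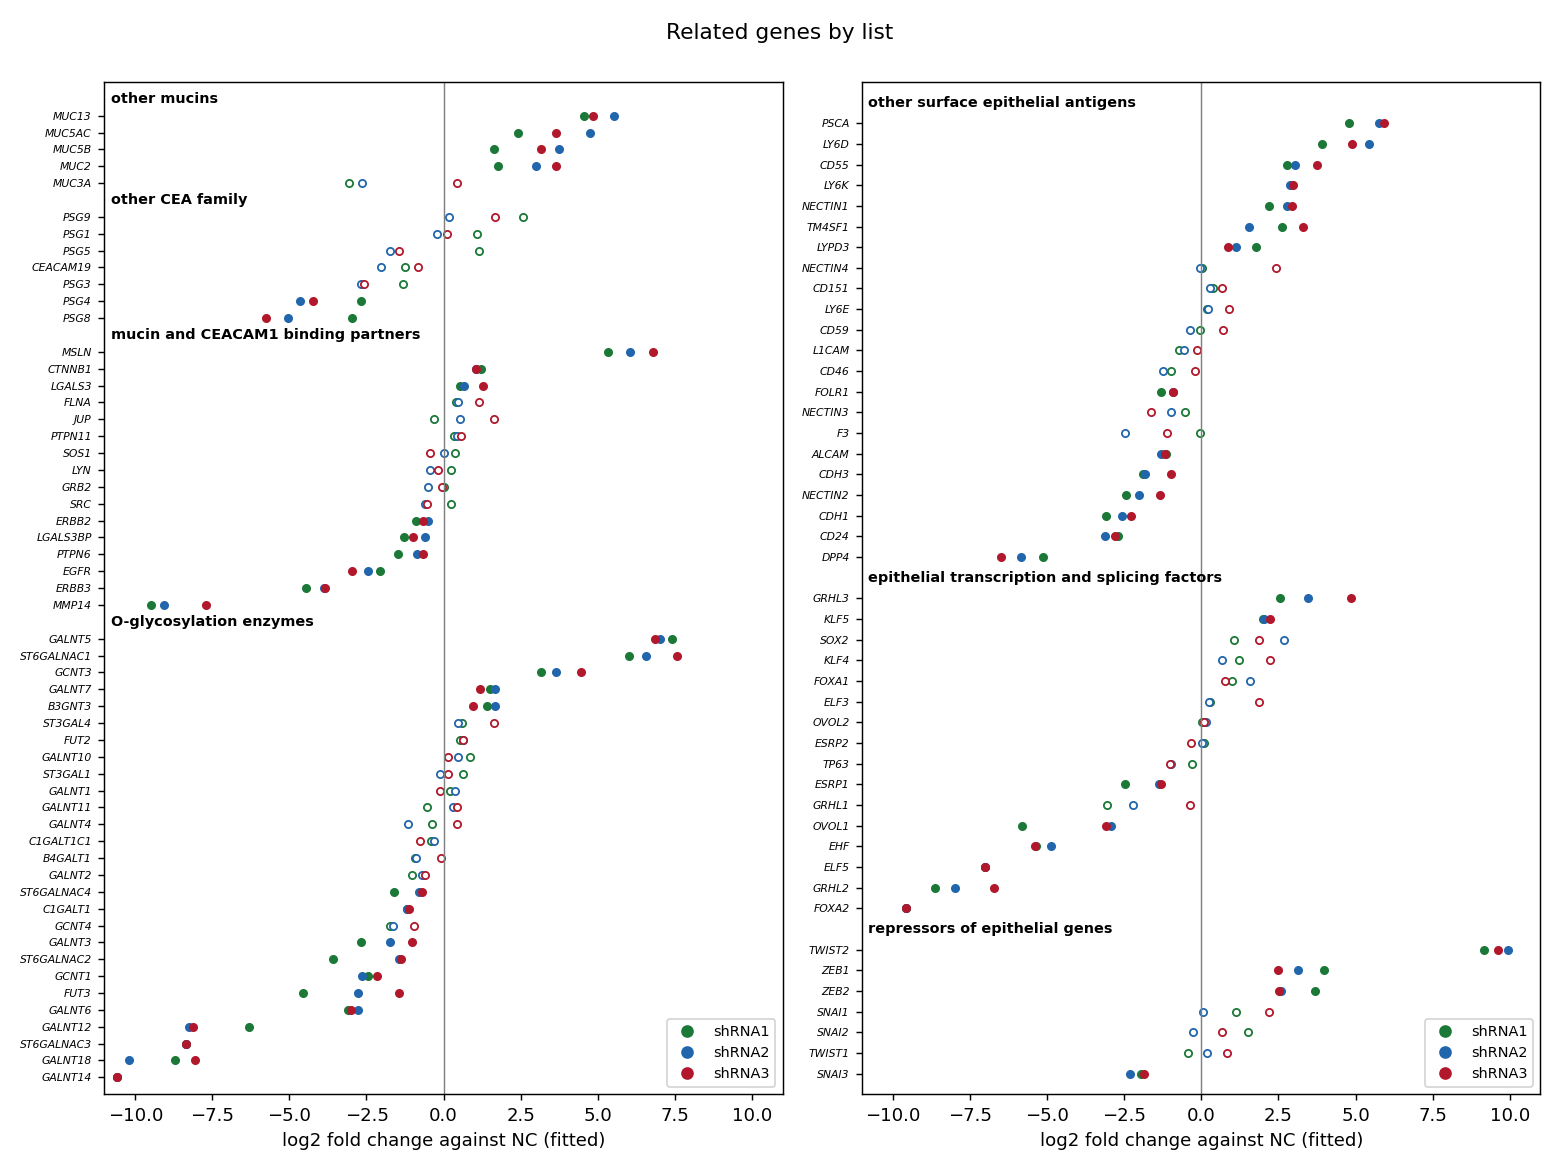
Fitted log2 fold change against NC, per shRNA, of every tested gene in 7 lists related to the members. Filled points belong to genes that passed in 1 direction with all 3 shRNAs. Values far from 0 can come from groups near 0 counts and then depend on the prior count of the fit. The 4 mucins that rose lie right of 0, and of the CEA family the 2 filled genes lie left of 0.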

How the data were processed

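The authors deposited 1 table for 12 libraries, which holds expected counts per gene ID, not scaled. Of its values, 13.8% are not whole. HISAT2, HTSeq 0.11.2 and GRCh38 are named, with no role or order, per the submitters' processing notes, and the use of strand is not given in the sources used here. Library preparation used a NEBNext Ultra kit, per the labels' protocols.

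Counts were rounded to whole numbers and scaled by TMM (factors 0.771 to 1.11). Genes were kept by filterByExpr (minimum count 10, minimum total 15) and tested two-sided with edgeR 4.0.16 (R 4.3.3, robust quasi-likelihood F test, 1 model of 4 groups, 8 residual degrees of freedom). Adjustment followed Benjamini and Hochberg over 17532 genes. The fit was also run on simulated data with 1 dispersion for all genes, no outlying library and changes in shRNA1 only. The outcome of that run is not reported here. The SE is the log2 fold change divided by the square root of F, and n is 3 per group. Members and lists were chosen with earlier results of these data known. From each list and locus, up to 3 higher and 3 lower genes were named that passed in 1 direction with all 3 shRNAs at a mean of at least 1 CPM, by the change in the least-changed shRNA. CLDN7, CD44, BACE1, MUC5B, MUC3A, PSG8, AGR2, ERBB2, C1GALT1 and the EPCAM proteases are named beyond this rule, after their values were seen. Some genes that meet the rule are not reported here. Positions, exon lengths and 50-base stretches come from GENCODE 29 (GRCh38). The 3-count limit and exact 95% intervals cover counting error only, since reads are not independent molecules. Alternatives were DESeq2 1.42.0 (size factors and Wald test), no filter, a mean of at least 50 counts, thinning, only the groups compared, a replicate block, a log2 change of at least 1, each library left out, shRNA3 libraries 1 and 2 left out, and, added after seeing the data, library totals without TMM.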

Additional observations from a re-analysis of the deposited data

Results flagged for a closer look

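In 7 cases the effect of 1 hairpin on a member differed from that of another by the test of the difference itself (edgeR's quasi-likelihood test). The log2 difference of shRNA1 minus shRNA2 was -0.79 for EPCAM and -1.21 for MUC1. The difference of shRNA1 minus shRNA3 was -1.19 for EPCAM, -1.02 for MUC1, -2.48 for MUC4 and -1.95 for CEACAM6. For CEACAM1, shRNA2 minus shRNA3 was -1.24. Libraries 1 and 2 of shRNA3 enter 5 of these 7 differences.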

How the results depend on the processing

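The calls of MUC4, MUC16, MUC20 and CEACAM6 against NC kept their direction and stayed past the threshold in every alternative that tested them, 20 or 21 per shRNA. Among these, the fit without libraries 1 and 2 of shRNA3 leaves 1 library in that group. A mean of at least 50 counts left CEACAM6 untested. With that filter 3 members passed in 1 direction with all 3 shRNAs in place of 4, and the count was 4 under all other alternatives. Counts between hairpins were less stable. For shRNA2 against shRNA3 (1 member) the count was 0 with no filter (2.72% of all genes), with only the groups compared (0%) and without TMM (3.38%). It was 2 by the DESeq2 Wald test (21.6%) and 0 to 3 with 1 library left out (0% to 59.2%). For shRNA1 against shRNA2 (2 members) it was 4 with only the groups compared, 5 without libraries 1 and 2 of shRNA3, 1 with a log2 change of at least 1, and 0 to 6 with 1 library left out. For shRNA1 against shRNA3 (4 members) it was 0 with only the groups compared (0% of all genes) and 1 to 7 with 1 library left out (9.8% to 63.4%). Several of these fits hold fewer libraries, and the cause of the shifts in the counts was not tested.

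Direction reversed only in differences that did not pass. Without libraries 1 and 2 of shRNA3, shRNA2 minus shRNA3 was 0.11 for EPCAM, 0.97 for MUC4 and 0.28 for MUC16, shRNA1 minus shRNA3 was -0.04 for MUC20 and 0.17 for CEACAM1, and shRNA3 minus NC was -0.37 for CEACAM1. Without TMM, shRNA2 minus shRNA3 was 0.09 for MUC16, shRNA3 minus NC was -0.01 for CEACAM1 and shRNA1 minus NC was -0.0023 for MUC1, the last being -0.01 with a mean of at least 50 counts. With 1 library left out, the range was -0.38 to 0.36 for MUC1 and -0.40 to 0.04 for CEACAM1 (shRNA1 minus NC), and -0.31 to 0.03 for MUC16 and -1.21 to 0.05 for MUC20 (shRNA2 minus shRNA3). Without TMM the median of all genes shifted to -0.10, -0.16 and -0.40 for the 3 shRNAs, so members with shRNA3 are read relative to that shift.

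No sign was seen that replicate numbers pair the libraries, and the labels do not say whether they do. The deviations of same-numbered libraries correlated at -0.00856 on average (-0.0868 to 0.0777, none of 18 over 0.1). With the replicate block the count for shRNA2 against shRNA3 was 0, where 2.16% of all genes passed. In that fit the mean difference of EPCAM was 0.39 (adjusted p = 0.0648, edgeR) and CEACAM1 passed with shRNA2 (adjusted p = 0.024, edgeR). Of 880 recomputed counts over the related lists and loci, 780 stayed within 1.5 times the reported count.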

Other observations

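Genes that lie within 250 kb of the members did not follow them as a block. Of 69 tested neighbours over all loci, 8 rose and 14 fell with all 3 shRNAs, or 11 and 21 without libraries 1 and 2 of shRNA3, and 4 rose without NC library 1 or 3. Around MUC4 and MUC20, 1 of 11 rose and 4 fell. TFRC, the transferrin receptor, rose from 193 CPM in NC to 598, 422 and 427 CPM, and PPP1R2, an inhibitor of protein phosphatase 1, fell from 128 to 64.5, 50.3 and 61.6 CPM. The pseudogenes SDHAP1 and SDHAP2 fell as well, from 42.4 to 15.7, 10.6 and 15.1 CPM and from 34.8 to 13.3, 12.7 and 13.9 CPM, and each shares sequence with SDHA, so their counts are uncertain. None of the 11 tested neighbours of CEACAM5, CEACAM6 and CEACAM7 rose with all 3 shRNAs, and 2 fell (6 without libraries 1 and 2 of shRNA3, and 1 without NC library 2, any shRNA2 library or library 1 of shRNA3). Beside CEACAM1, LIPE, the hormone-sensitive lipase, fell from 16.7 CPM to 0.0484, 0.152 and 0.23 CPM (edgeR adjusted p of at most 1.21e-05). Of 32 neighbours of MUC1, 4 rose and 5 fell, or 7 and 5 without libraries 1 and 2 of shRNA3. With 1 library left out, 2 rose without NC library 1 or without library 1 or 3 of shRNA2, 1 rose without NC library 3, 2 fell without NC library 1, and 3 fell without NC library 2 or library 3 of shRNA2. Of the fibroblast markers, 3 of 4 tested genes fell with all 3 shRNAs. Of the endothelial markers 2 of 3 fell, or 1 without NC library 1 or without libraries 1 and 2 of shRNA3, while PECAM1 rose from 0.133 CPM to 2.6, 4.75 and 8.73 CPM.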
